A study of Mus musculus with 10 samples.

Results

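Immunoglobulin constant genes and Jchain were examined in RNA from sorted mouse liver cells labelled as hepatocytes. The members are a fixed list of 8 genes out of 55385 identifiers in the count table: the heavy chain genes Ighm, Igha, Ighg1, Ighg2b, Ighg2c and Ighg3, the kappa light chain gene Igkc, and Jchain. All 8 matched an identifier, and 7 of 8 passed a filter on low counts. The members were selected on their counts in the KO-labelled and WT-labelled libraries, so the difference between these labels is given for them as a description, with no test.

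The series holds 10 libraries, and 4 of them carry these values: 2 labelled EP300 KO and 2 labelled EP300 WT. The titles of these 4 begin with HCC (hepatocellular carcinoma), and the share of tumour cells in them was not tested. All mice of both groups had floxed alleles of Ep300, the gene of a histone acetyltransferase (genotype EP300f/f, strain C57BL/6J 129SV), ate a diet with DDC, which injures hepatocytes and bile ducts, and received the plasmid pT3-cMet by hydrodynamic tail vein injection, for 5 months. The KO group (labelled EP300-/-) was injected with the virus AAV-TBG-Cre and the WT group with AAV-TBG-GFP. The TBG promoter is active in hepatocytes, so neither group is a model of gene loss in B cells or plasma cells. Ages and sexes are not given in the labels, which mention sequencing in a pool and name no animal for any library. Each p-value below therefore reflects the spread between these libraries alone, and that spread may be technical. The other 6 libraries, of mice given cMet with or without DDC, were counted against identifiers that match no mouse gene and were not analysed here.

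An antibody is built from heavy and light chains, each with a variable part that binds antigen and a constant part shared by all antibodies of a class. Class switching joins the same rearranged variable segment to another heavy chain constant gene, so IgM, IgG and IgA come from Ighm, the Ighg genes and Igha. Plasma cells are B cells turned to secretion and carry very large amounts of immunoglobulin RNA, so a small number of them shows in a bulk library. Jchain encodes the joining chain that links IgA and IgM into polymers. Hepatocytes are not known as a source of these transcripts, and in rodents they carry polymeric IgA into bile through the receptor encoded by Pigr.

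Total counts ran from 17709799 to 18831671 per library. Hepatocyte markers were abundant. Alb (albumin) averaged 72611 CPM in the KO-labelled and 78219 CPM in the WT-labelled libraries (counts scaled by TMM to a common library size). The 10 hepatocyte markers together stood at 122019 to 145917 CPM. These levels do not show how free of other cells the preparations were. In the same libraries 12 Kupffer cell and macrophage markers summed to 839 to 892 CPM. The sums were 248 to 265 CPM for 10 pan-leukocyte genes and 215 to 286 CPM for 8 endothelial markers. Ep300 itself was at 1274 and 1258 counts in the KO-labelled pair, against 1184 and 1114 in the WT-labelled pair, so the gene-level count does not show the deletion, and every direction below is between libraries as labelled. Xist, which in mice is made from the inactive X chromosome, had 2310 and 1411 counts in the KO-labelled pair, against 3 and 2 in the WT-labelled pair. The Y-linked genes Ddx3y, Eif2s3y, Kdm5d and Uty had counts in all 4 libraries, with Ddx3y at 954 and 813 against 1079 and 1077. Xist, named here after its values were seen, thus separated the labels, and the Ep300 label and whatever else differed between the animals cannot be told apart.

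The constant genes of the 4 IgG subclasses lie side by side on chromosome 12 and are related in sequence, so how well reads can tell them apart bears on every value below. Across the first 4 exons, Ighg2b and Ighg2c were 85.5% identical, and the other pairs 73.3% to 75.4%. Of all stretches of 50 bases in its annotated transcripts, Ighg2c shared 5.49% with another gene, Ighg2b 4.15%, Ighg3 1.58% and Ighg1 0.393%. The values were 0 for Ighm, Igha and Igkc, and 0.288% for Jchain. The hinge exon, the second exon of each IgG gene, encodes the flexible joint between the arms and the stem of the antibody. It is shown here because it differs between the subclasses, in length and in letters (GRCm38, minus strand, all in lower case).
Ighg1, chr12:113329844-113329882: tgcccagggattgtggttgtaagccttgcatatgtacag
Ighg2b, chr12:113307261-113307326: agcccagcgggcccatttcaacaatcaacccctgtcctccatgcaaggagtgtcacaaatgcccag
Ighg2c, chr12:113288263-113288325: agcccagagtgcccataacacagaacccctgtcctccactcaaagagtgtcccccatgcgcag
Ighg3, chr12:113360529-113360576: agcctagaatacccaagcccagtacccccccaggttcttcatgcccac
The exon had 39 bases in Ighg1, 66 in Ighg2b, 63 in Ighg2c and 48 in Ighg3.

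Both KO-labelled libraries lay below both WT-labelled libraries for 5 of the 8 members, Ighm, Ighg1, Ighg2c, Igkc and Jchain, and the groups overlapped for Igha, Ighg2b and Ighg3. Over all 14200 genes tested, 33.5% had both KO-labelled libraries below both WT-labelled libraries and 34.2% were called in either direction (edgeR adjusted p under 0.05). Nothing is read from the members' count, since it comes from the values that chose them. The 8 genes together had 403 and 374 counts in KO replicates 1 and 2 and 1169 and 1042 in WT replicates 1 and 2. After scaling this was 22.4 ± 1.29 CPM (SD, n = 2) in the KO-labelled and 57.9 ± 5.24 CPM (SD, n = 2) in the WT-labelled libraries, a level 2.58 times as high in the latter. In bulk RNA, fewer cells of a type and less RNA per cell cannot be told apart. Counts of single members are low, and their differences are given as edgeR's log2 fold change, KO-labelled minus WT-labelled, with its standard error (SE).

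Ighg1 (chromosome 12, 113325240 to 113330523, GRCm38) differed most among the members. It encodes the constant part of IgG1, a major IgG subclass of mouse serum. Counts were 21 and 33 in the KO-labelled pair, against 286 and 277 in the WT-labelled pair. The WT-labelled libraries lay close together and far above the other group, a log2 fold change of -3.24 (SE 0.19).

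Ighg2c (113285325 to 113288932), the IgG2c gene of C57BL/6 mice, had 20 and 30 counts in the KO-labelled pair, against 101 and 102 in the WT-labelled pair. The groups did not overlap, and the log2 fold change was -1.88 (SE 0.25). Ighg2a, the counterpart in other strains, matched no identifier and has no value here.

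Ighg2b (113302965 to 113307933) behaved otherwise. Counts were 37 and 38 in the KO-labelled libraries and 68 and 28 in the WT-labelled ones, which thus lay on either side of the KO-labelled pair. The log2 fold change of -0.22 (SE 0.35) turned to 0.57 without WT replicate 1 and to -0.71 without WT replicate 2. Ighg3 (113356224 to 113361232) had 6 and 2 counts against 3 and 6 and was the member that did not pass the filter.

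Ighm (113418558 to 113422730) encodes the constant part of IgM, which naive B cells display and early plasma cells secrete. Counts were 47 and 42 in the KO-labelled pair, against 168 and 160 in the WT-labelled pair. All values of the first pair were below those of the second, with a log2 fold change of -1.74 (SE 0.19).

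Igha (113254830 to 113260236), the gene of the antibody class that dominates at mucosal surfaces, had 135 and 99 counts in the KO-labelled pair, against 172 and 136 in the WT-labelled pair. After scaling the values were 7.81 and 5.69 CPM against 9.06 and 7.07 CPM, so the groups overlapped. The log2 fold change was -0.26 (SE 0.18), and -0.04 without KO replicate 2. In the KO-labelled libraries Igha was thus the heavy chain gene with the most counts, whereas in the WT-labelled libraries that was Ighg1.

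Igkc (chromosome 6, 70726435 to 70726966, plus strand) serves every antibody with a kappa light chain, whatever its class. Counts were 104 and 108 in the KO-labelled pair, against 318 and 273 in the WT-labelled pair, with no overlap and a log2 fold change of -1.34 (SE 0.14). Jchain (chromosome 5, 88519809 to 88527891) had 33 and 22 counts against 53 and 60. The groups did not overlap, and the log2 fold change of -0.89 (SE 0.28) ran from -1.21 to -0.62 with KO replicate 1 or KO replicate 2 left out.

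**Figure D1:**
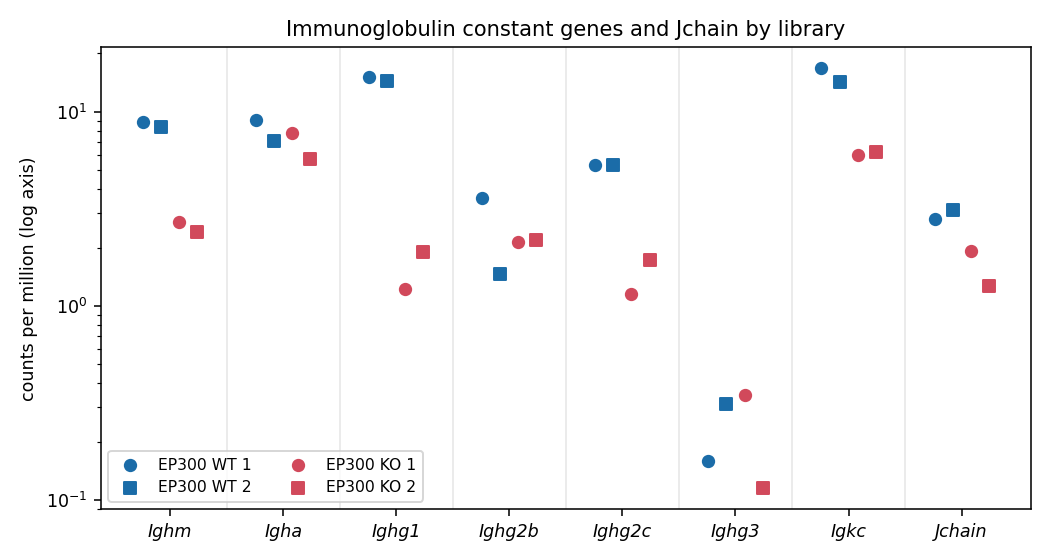
CPM (log axis) of the 8 members in each library, blue for EP300 WT and red for EP300 KO, circles for replicate 1 and squares for replicate 2. The WT-labelled libraries lie above the KO-labelled ones for 5 members, most widely for Ighg1, while Igha, Ighg2b and Ighg3 overlap.

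To compare genes of unequal length, CPM was divided by the length of the annotated exons in kilobases. That length is 1326 bases for Ighg2c and 2678 for Ighg2b, although their first 4 exons hold 999 and 1002 bases. The order of members per length thus depends on the annotation. On this per-length scale Igkc was the highest member in both groups, at 11.5 in the KO-labelled and 29.1 CPM per kb in the WT-labelled libraries, above 79.7% and 91.2% of the genes tested that have a length. In the WT-labelled libraries the order below it was Ighg1 (5.68 CPM per kb), Ighm (4.55), Ighg2c (above 57.0% of genes), Igha (3.02), Jchain (1.17), Ighg2b (0.940) and Ighg3 (0.0935). Of these neighbours, the ranges of Jchain and Ighg2b over the libraries overlapped and those of the others did not. On counts Igha stood above Ighg2c in the WT-labelled libraries, with 172 and 136 against 101 and 102.

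In the KO-labelled libraries Igha (2.53 CPM per kb) came second, followed by Ighm (1.36), Ighg2c (1.09), Ighg2b (0.808), Jchain (0.631), Ighg1 (above 18.2% of genes) and Ighg3 (0.0920). There the ranges of Ighm and Ighg2c overlapped, as did those of Jchain and Ighg1. On counts Ighg2b stood above Ighg2c in the KO-labelled libraries, with 37 and 38 against 20 and 30. Ighg1 thus stood next below Igkc in the first order and below Jchain in the second.

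The make-up of the heavy chain counts is a way to set the members against each other within a library, free of library scaling. Igha held 50.8% of the heavy chain constant counts in KO replicate 1 (135 of 266, 95% Wilson interval 44.8% to 56.7%) and 40.6% in KO replicate 2 (99 of 244, 34.6% to 46.8%). In WT replicate 1 it held 21.6% (172 of 798, 18.8% to 24.5%) and in WT replicate 2 19.2% (136 of 709, 16.5% to 22.2%). The Wilson intervals cover counting error only, and the members were chosen on these counts, so no difference is read from the intervals. Igha itself overlapped between the labels in CPM. Its share also rises when the counts of other heavy chain genes are lower.

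Ighg1 showed the opposite order, with 7.89% and 13.5% of the heavy chain counts in the KO-labelled pair, against 35.8% and 39.1% in the WT-labelled pair. The 4 IgG genes together held 31.6% and 42.2% against 57.4% and 58.3%, whereas Ighm held 17.7% and 17.2% against 21.1% and 22.6%. The share of Ighg2b was 13.9% and 15.6% against 8.52% and 3.95%. These shares come from the counts that chose the members and are a description of these libraries.

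**Figure D2:**
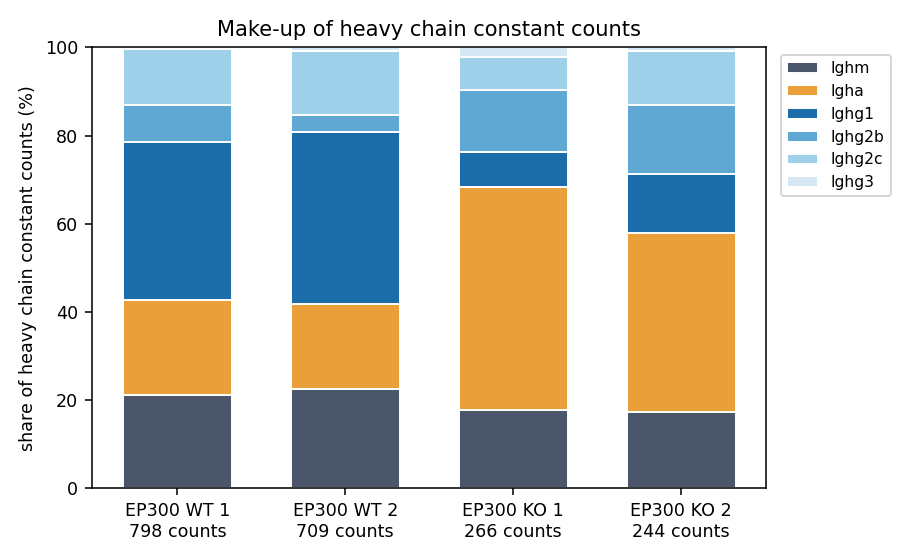
Share of heavy chain constant counts (%) held by each of the 6 heavy chain members in each library, with the number of counts below each bar. Igha fills 40.6% to 50.8% of the KO-labelled and 19.2% to 21.6% of the WT-labelled bars, and Ighg1 7.89% to 13.5% against 35.8% to 39.1%.

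The ratio of light to heavy chains depended on the scale. Igkc had 0.391 and 0.443 counts per heavy chain count in the KO-labelled pair, against 0.398 and 0.385 in the WT-labelled pair. Jchain had 0.181 and 0.156 counts per count of Igha and Ighm together, against 0.156 and 0.203. On counts the groups overlapped for both ratios. Per length, Igkc stood at 1.70 and 1.85 times the summed heavy chains in the KO-labelled libraries and at 1.63 and 1.54 times in the WT-labelled ones, with no overlap.

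Of the other constant genes, Ighd (IgD) had 4 and 1 counts in the KO-labelled pair, against 7 and 4 in the WT-labelled pair, and Ighe (IgE) had 1 count in all, in KO replicate 2. The lambda light chain constant genes Iglc1 to Iglc4 had 5 and 0 counts together against 12 and 4. None of these 6 genes passed the filter. Lambda made up 2.30% of light chain constant counts over the KO-labelled libraries (5 of 217, 95% Wilson interval 0.988% to 5.28%) and 2.64% over the WT-labelled libraries (16 of 607, 1.63% to 4.24%).

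The variable segments, which the list does not hold, gave a second view of the same RNA. Of 382 variable, diversity and joining segments in the table, 139 had at least 1 count. Together they had 162 and 148 counts in the KO-labelled pair, against 502 and 541 in the WT-labelled pair, or 8.94 ± 0.614 CPM (SD, n = 2) and 27.3 ± 1.19 CPM (SD, n = 2). The level was 3.05 times as high in the WT-labelled libraries. With 2 libraries against 2, an exact two-sided permutation test cannot give a p below 0.333, so this sum has no test. Segments had 0.438 and 0.420 counts per count of the constant genes in the KO-labelled pair, against 0.450 and 0.551 in the WT-labelled pair.

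More different segments were seen where there were more counts, 61 and 59 in the KO-labelled pair, against 95 and 104 in the WT-labelled pair. The heavy chain locus gave 74 and 63 counts against 243 and 227, the kappa locus 83 and 80 against 234 and 280, and the lambda variable segments 5 and 5 against 20 and 30. All 3 loci were thus lower in both KO-labelled libraries.

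The segments differed widely among themselves. Ighv1-12 had 1 and 0 counts in the KO-labelled pair, against 23 and 19 in the WT-labelled pair, a ratio of 38.1 (WT-labelled over KO-labelled, 95% counting interval 6.47 to 1540). Ighv1-18 had 2 and 0 against 21 and 23, a ratio of 20.0 (5.21 to 170). Ighv8-12 had 0 and 0 against 23 and 13, at least 10.9-fold higher in the WT-labelled libraries with the KO-labelled group set to a floor of 3 counts, and is named here after its values were seen.

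Ighv1-81 went another way, with 18 and 13 counts in the KO-labelled pair, against 8 and 20 in the WT-labelled pair (log2 fold change 0.29, SE 0.47, edgeR adjusted p = 0.688). The first 300 bases of the exon that encodes the variable domain of Ighv1-81, Ighv1-12 and Ighv1-18 are shown, since these segments belong to a single family yet had such unlike counts. They are germline sequences of the reference (GRCm38, minus strand), and capitals mark bases that differ from Ighv1-81.
Ighv1-81, chr12:115920284-115920583: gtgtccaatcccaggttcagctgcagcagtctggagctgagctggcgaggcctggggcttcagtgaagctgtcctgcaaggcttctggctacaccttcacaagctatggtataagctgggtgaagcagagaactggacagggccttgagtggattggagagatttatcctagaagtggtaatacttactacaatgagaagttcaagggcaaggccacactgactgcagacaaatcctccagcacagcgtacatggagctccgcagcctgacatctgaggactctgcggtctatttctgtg
Ighv1-12, chr12:114615855-114616154: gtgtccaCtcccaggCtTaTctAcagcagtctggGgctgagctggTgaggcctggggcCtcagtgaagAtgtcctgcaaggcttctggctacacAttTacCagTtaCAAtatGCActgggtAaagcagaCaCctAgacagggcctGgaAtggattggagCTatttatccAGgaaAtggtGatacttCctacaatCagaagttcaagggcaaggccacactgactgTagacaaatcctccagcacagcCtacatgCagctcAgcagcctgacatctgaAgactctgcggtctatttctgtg
Ighv1-18, chr12:114682637-114682936: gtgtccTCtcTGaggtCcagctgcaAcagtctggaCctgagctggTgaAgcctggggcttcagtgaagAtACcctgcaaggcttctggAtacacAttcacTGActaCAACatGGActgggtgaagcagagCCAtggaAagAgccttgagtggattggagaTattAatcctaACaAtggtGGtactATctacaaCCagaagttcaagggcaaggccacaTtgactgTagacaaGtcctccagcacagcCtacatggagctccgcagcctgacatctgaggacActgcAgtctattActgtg
Over these 300 bases Ighv1-12 differs from Ighv1-81 at 38 (87.3% identity) and Ighv1-18 at 47 (84.3%), with no gap.

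Related segments can still share reads. Of the stretches of 50 bases in its transcripts, Ighv1-12 shared 5.50% with another gene, Ighv1-81 11.6% and Ighv1-18 32.6%. Among the 18 segments with at least 20 counts over the 4 libraries the share reached 57.6%, in Ighv1-53. How counts divide among close relatives is therefore uncertain.

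Among kappa segments, Igkv10-96 had the most counts, 7 and 7 in the KO-labelled pair, against 33 and 39 in the WT-labelled pair (log2 fold change -2.20, SE 0.40, edgeR adjusted p = 0.000485). Igkv1-117 had 16 and 9 against 13 and 11 (0.20, SE 0.47, edgeR adjusted p = 0.786). Its close relative with the identifier ENSMUSG00000093861 had 12 and 16 against 7 and 6, the reverse order (1.23, SE 0.50, edgeR adjusted p = 0.0711). The last 2 share 49.9% and 50.9% of their stretches of 50 bases with another gene, mostly with each other. Of the lambda segments, Iglv1 had 4 and 4 counts against 17 and 28 (-2.32, SE 0.53, edgeR adjusted p = 0.00292), and did not pass without WT replicate 2 (adjusted p = 0.0904). Iglv2 and Iglv3 did not pass the filter.

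Of the 12 segments that passed the filter, 9 were lower in the KO-labelled libraries at an edgeR adjusted p under 0.05, where 17.5% of all genes tested were. With WT replicate 2 left out, 5 were. The filter asks for about 10 counts in 2 libraries, and these 9 met it through the WT-labelled libraries alone, so their direction was fixed by the filter and their number is no support for a difference. No segment was called higher by edgeR, DESeq2 or limma-voom. At an unadjusted p under 0.05, 1 was higher with edgeR, 1 with limma-voom and 0 with DESeq2.

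The counts of segments differed more between labels than between the WT-labelled libraries. Between the WT-labelled libraries, the counts of segments differed by a chi-square of 1.07 per degree of freedom (31 degrees of freedom), and between the KO-labelled libraries by 0.763 (5 degrees of freedom), where sampling noise alone gives about 1. The 4 pairs of a KO-labelled and a WT-labelled library gave 4.36 to 5.24 per degree of freedom. Segments with fewer than 10 counts over a pair were pooled for this. In the KO-labelled pair that left 5 segments outside the pool, so a difference there could hardly show.

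The share of segment usage held in common was 72.7% between the WT-labelled libraries and 56.9% between the KO-labelled ones, and 35.7% to 35.9% between labels. This share also falls with the number of counts, which was lower in the KO-labelled libraries. For the 8 members the chi-square per degree of freedom was 1.96 between the KO-labelled and 2.69 between the WT-labelled libraries. The members had more counts than the segments (777 against 310 and 2211 against 1043), so these values do not compare how much each varied. The labels do not say whether the libraries of a label share animals or which strain's heavy chain locus the mice carry, and this was not tested.

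**Figure D3:**
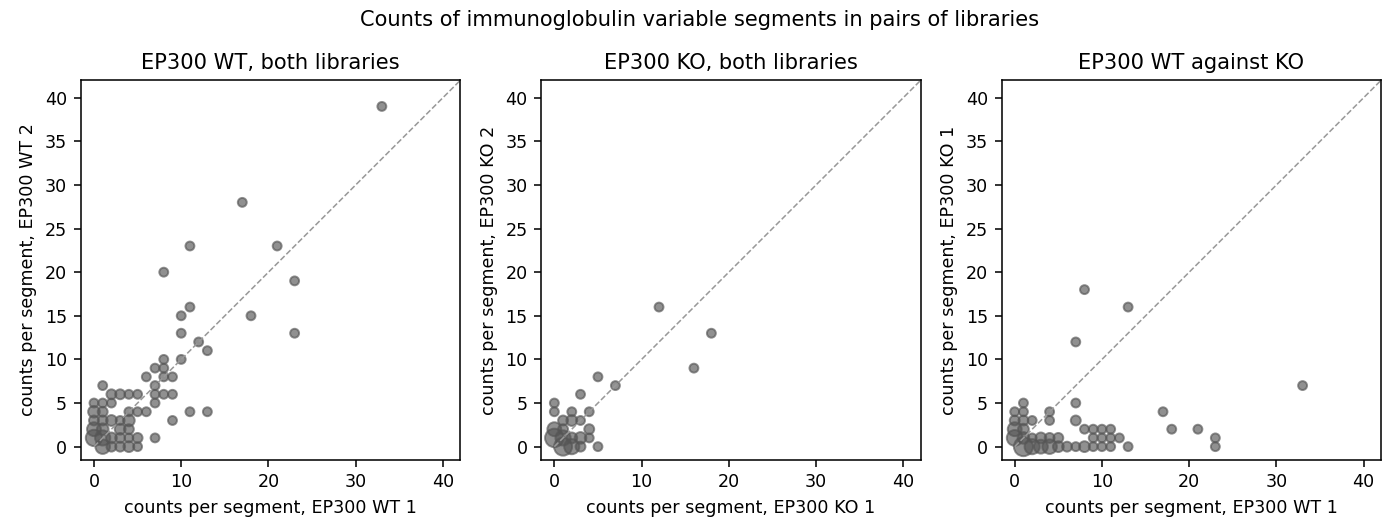
Counts of each variable, diversity or joining segment in 3 pairs of libraries, with larger points where more segments share a position and a dashed line of equal counts. Segments high in a WT-labelled library tend to be high in the other, with exceptions such as Ighv1-81 (8 and 20 counts). Many segments with 10 to 23 counts in EP300 WT 1 have 0 to 2 in EP300 KO 1.

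The amount of immunoglobulin RNA was small beside the whole. All immunoglobulin genes and Jchain together took 574 and 524 counts in the KO-labelled pair, against 1690 and 1591 in the WT-labelled pair. This is 0.00324% (95% Wilson interval 0.00299% to 0.00352%) and 0.00294% (0.00270% to 0.00320%) of all counts in KO replicates 1 and 2. In WT replicates 1 and 2 it is 0.00910% (0.00867% to 0.00954%) and 0.00845% (0.00804% to 0.00887%). For each immunoglobulin count there were 2149 and 2452 counts of Alb in the KO-labelled pair, against 880 and 945 in the WT-labelled pair.

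Ms4a1, Cd79a and Cd3e, which define B cells and T cells, were near the floor of detection. Ms4a1 (CD20), a surface protein of B cells, had 1, 0, 1 and 0 counts in KO replicates 1 and 2 and WT replicates 1 and 2, in that order, and Cd79a, a part of the B cell receptor, 0, 2, 1 and 3. Cd3e, a part of the T cell receptor complex, had 3, 1, 3 and 1.

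For these 3 genes the 95% counting interval of the ratio between labels held 1, so a difference was not detectable at this depth. Other genes of the B cell list were counted more. Cd22 had 64 and 63 counts in the KO-labelled pair, against 65 and 58 in the WT-labelled pair. Bach2 had 112 and 93 against 122 and 143. No library had more than 10 counts of 12 of 20 B cell markers, 15 of 19 T cell markers and 9 of 11 markers of NK and cytotoxic cells. Some of these rarely counted genes did differ between labels by more than counting error, and those that follow are named after their values were seen. Cd8a, a co-receptor of cytotoxic T cells, had 0 and 1 counts in the KO-labelled pair, against 7 and 8 in the WT-labelled pair (ratio 13.6, WT-labelled over KO-labelled, 95% counting interval 2.09 to 573). Pou2af1, a coactivator of B cells and plasma cells, had 0 and 1 against 4 and 6 (9.07, 1.29 to 394). Bcl11b, a transcription factor of T cells, had 0 and 0 against 5 and 2. Tbx21, on the NK and cytotoxic cell list, went the other way, with 5 and 0 against 0 and 0. None of Cd8a, Pou2af1, Bcl11b and Tbx21 passed the filter, so they have no test across libraries. Cd4, on the T cell list, passed the filter with 10 and 22 counts against 9 and 9 (edgeR adjusted p = 0.157). The ratio of Cd4, KO-labelled over WT-labelled, was 1.96 (95% counting interval 1.07 to 3.71). Of the more specific plasma cell markers, Mzb1, which helps immunoglobulin assembly, had 6, 2, 6 and 7 counts, and 57.2% of its exon bases lie in another gene. Tnfrsf17 (BCMA), a survival receptor of plasma cells, had 0 in every library, where 3 counts in the shallowest library would be 0.169 CPM before TMM scaling. Slamf7, also on the plasma cell list, was counted more, with 74 and 77 counts in the KO-labelled pair, against 64 and 58.

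The lists of plasma cell, B cell, T cell, NK and pan-leukocyte markers hold 74 genes, of which 31 passed the filter. Of these, 6 fell and 3 rose in the KO-labelled libraries (edgeR adjusted p under 0.05), where 17.5% of all genes tested were lower and 16.7% higher, and their median log2 fold change was -0.12, against -0.01 over all genes. The share that fell is near that background. Those that fell were Xbp1, Cr2, Ly6d, Tcf7, Ccl5 and Ptprc, and those that rose were Derl3, Cd72 and Lcp1. The number that fell was 3 without WT replicate 1, 3 without WT replicate 2, 8 without KO replicate 2 and 4 without KO replicate 1. Of the 6 that fell, Ly6d and Tcf7 passed in all 10 alternatives, and of the 3 that rose, Derl3 did.

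Ly6d, a surface protein of B cell progenitors that keratinocytes also carry, had 272 and 375 counts in the KO-labelled pair, against 1520 and 1516 in the WT-labelled pair (log2 fold change -2.09, SE 0.11, edgeR adjusted p = 3.46e-10). The summed counts of the B cell list, Ly6d included, were 714 and 855 against 2072 and 2054. Tcf7, a transcription factor of T cells that also acts in Wnt signalling elsewhere, had 69 and 79 against 312 and 278 (-1.85, SE 0.15, edgeR adjusted p = 7.61e-08). It made up most of the T cell list, at 132 and 152 against 384 and 355. Both levels stood far above those of Cd79a and Cd3e in the same libraries.

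The complement receptor gene Cr2 had 6 and 7 counts against 26 and 18 (-1.60, SE 0.47, edgeR adjusted p = 0.0149). Cr2 met the filter through the WT-labelled libraries alone, so its direction was fixed and it lends no support to the count of markers that fell. The call was lost without KO replicate 1 (adjusted p = 0.0761), without WT replicate 1 (0.198) or without WT replicate 2 (0.0631), and also with DESeq2 (0.114) and when every gene with 1 count was tested (0.0730). The chemokine gene Ccl5 had 5 and 13 against 27 and 29 (-1.48, SE 0.44, edgeR adjusted p = 0.0161). In the KO-labelled pair it reached the level of the filter in replicate 2 but not in replicate 1. That pair alone would not have met the filter, which thus favoured a lower value there. Ccl5 therefore lends little support to the count of markers that fell. Its call likewise ended without KO replicate 1 (adjusted p = 0.164), WT replicate 1 (0.120) or WT replicate 2 (0.161), with DESeq2 (0.0990) and when every gene with 1 count was tested (0.121).

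Ptprc (CD45), the surface phosphatase of all leukocytes, had 310 and 276 counts in the KO-labelled pair, against 448 and 428 in the WT-labelled pair (-0.44, SE 0.10, edgeR adjusted p = 0.00319). The call of Ptprc was lost without WT replicate 1 (adjusted p = 0.0864) or WT replicate 2 (0.0575), and when every gene with 1 count was tested (0.0517). Lcp1, a leukocyte actin-bundling protein, had 1930 and 1930 against 1755 and 1844 (0.24, SE 0.06, edgeR adjusted p = 0.00636), and did not pass without WT replicate 1 (0.132) or WT replicate 2 (0.0721).

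Several plasma cell markers are also made by hepatocytes, and some of them act in the secretory pathway. Sdc1 (syndecan-1) stood at 299.5 ± 12.5 CPM (SD, n = 2) in the KO-labelled and 328.7 ± 3.71 CPM (SD, n = 2) in the WT-labelled libraries (-0.13, SE 0.06, edgeR adjusted p = 0.0826). It passed without KO replicate 2 (adjusted p = 0.00378) and with library size alone as the scaling (0.0123). Xbp1, a transcription factor of the unfolded protein response that plasma cells need, had 3744 and 4337 counts against 5817 and 5806 (-0.38, SE 0.07, edgeR adjusted p = 0.000287), and did not pass when every gene with 1 count was tested (0.0563). Derl3, of endoplasmic reticulum protein disposal, rose, with 67 and 66 counts against 19 and 17 (2.02, SE 0.28, edgeR adjusted p = 3.59e-05). Cd72, on the B cell list, also rose, with 89 and 102 against 62 and 52 (0.88, SE 0.21, edgeR adjusted p = 0.00364). The call of Cd72 was lost without WT replicate 2 (0.0819), and 41.6% of its exon bases lie in another gene.

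Genes that bind or carry antibodies ranged widely in level, from Fcamr, an IgA and IgM receptor named after its values were seen (1.15 CPM in the KO-labelled and 1.80 CPM in the WT-labelled libraries), to Pigr (1224 and 640.5 CPM). Pigr, the receptor that carries polymeric IgA and IgM across epithelia, rose in the KO-labelled libraries, with 21519 and 20922 counts against 12192 and 12296 (log2 fold change 0.93, SE 0.05, edgeR adjusted p = 8.12e-10). Of the genes for these antibodies, Jchain and Ighm were lower in the same libraries, and Igha overlapped between labels. Whether these levels are linked to that of Pigr was not tested. Of the 10 genes of antibody receptors and transport, 3 rose and 2 fell, where 16.7% of all genes tested were higher and 17.5% lower. Fcgr1, the high-affinity IgG receptor of macrophages, had 107 and 104 counts against 174 and 173 (-0.58, SE 0.15, edgeR adjusted p = 0.00646), and did not pass without WT replicate 1 (0.0750) or WT replicate 2 (0.0742), nor with DESeq2 (0.0581). Lgals3 (galectin-3), which binds sugars of IgE and many other glycoproteins, had 2185 and 2312 against 1513 and 1757 (0.60, SE 0.07, edgeR adjusted p = 7.31e-06). Fcgrt, the receptor that recycles IgG, had 3181 and 3315 against 3250 and 3082 and passed narrowly (0.18, SE 0.06, edgeR adjusted p = 0.0332), but not without WT replicate 1 (0.109) or WT replicate 2 (0.308), nor with library size alone (0.178), DESeq2 (0.0753) or every gene with 1 count tested (0.110).

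Of 16 genes of plasma cell survival and homing, 8 passed the filter, 1 fell and 1 rose, a share near that of all genes tested (17.5% lower and 16.7% higher). Tnfsf13 (APRIL), a ligand that keeps plasma cells alive, had 18 and 18 counts in the KO-labelled pair, against 99 and 126 in the WT-labelled pair (-2.49, SE 0.26, edgeR adjusted p = 1.82e-06). Another gene covers 60.0% of its exon bases, so its reads cannot be told apart there. Cxcl12, a chemokine that draws plasma cells, had 3014 and 2891 against 2189 and 2071 (0.61, SE 0.06, edgeR adjusted p = 1.49e-06). Tnfsf13b (BAFF) and Il6 did not pass the filter, at 3 to 6 counts in every library.

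Markers of other cells of the liver and blood moved in the same libraries, where 17.5% of all genes tested were lower and 16.7% higher. The summed level of 12 Kupffer cell and macrophage markers was 839 to 842 CPM in the KO-labelled and 881 to 892 CPM in the WT-labelled libraries, with 2 members lower and 4 higher, and none at 0. That of 8 endothelial markers was 215 to 241 against 281 to 286 CPM, with 5 members lower, among them Vwf (-1.23, SE 0.11, edgeR adjusted p = 4.30e-07). That of 6 neutrophil markers was 9.94 to 12.6 against 14.7 to 16.6 CPM, with 2 members lower. That of 6 erythroid markers was 49.4 to 51.9 against 10.5 to 11.1 CPM, of which Alas2 held most (790 and 784 against 120 and 120 counts), whereas the globin gene Hbb-bs had 56 and 44 counts against 58 and 33. Among neutrophil markers, Retnlg went the other way (20 and 9 against 4 and 9 counts) but did not pass the filter. With DESeq2 the calls of Timd4 (higher, adjusted p = 0.178), C1qa (lower, 0.138), Emcn (lower, 0.148) and Csf3r (lower, 0.217) were lost. When every gene with 1 count was tested, those calls and those of S100a9 (lower, 0.154) and Cd68 (higher, 0.05004) were lost. The part of these other cells in the levels of the members was not tested.

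**Figure D4:**
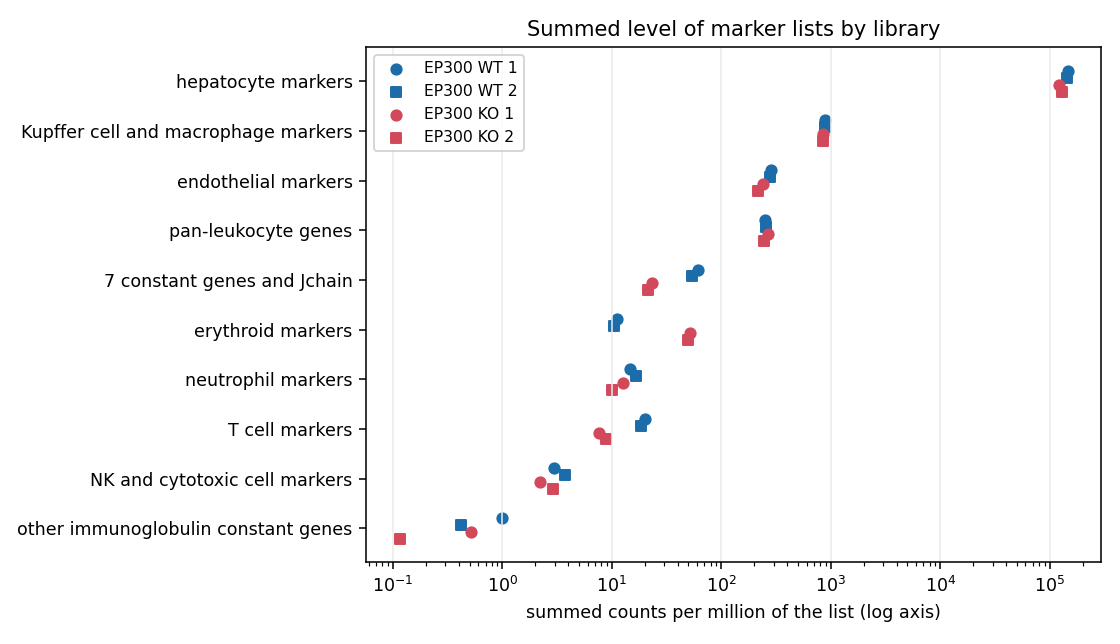
Summed CPM (log axis) of marker lists in each library, blue for EP300 WT and red for EP300 KO. The plasma cell list (803 to 922 CPM) and the B cell list (41.3 to 109 CPM) are not drawn. Neither are those of B cell development, antibody receptors and plasma cell survival. The erythroid list lies above the members in the KO-labelled libraries only. The 8 members sum to 21.5 to 23.3 in the KO-labelled and 54.1 to 61.6 in the WT-labelled libraries, below the pan-leukocyte, endothelial and macrophage lists and far below the hepatocyte markers at 122019 to 145917.

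By the smallest root mean square difference of centred log2 CPM over the 4 libraries, the genes most like the summed members were Kcp (0.06), Fmn1 (0.06), Cyp2b9 (0.06), Slc1a2 (0.08) and Abtb2 (0.09), out of 8387 genes compared. Cyp2b9 had 30.4 and 28.6 CPM in the KO-labelled and 72.9 and 69.0 CPM in the WT-labelled libraries. None of the 5 is an immunoglobulin gene, and 4 libraries in 2 groups cannot set such patterns apart.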

How the data were processed

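RNA was sequenced from sorted mouse liver cells. For the EP300 libraries the authors deposited 1 table of raw read counts. STAR, HTSeq, DESeq2 and mm10 are named in the submitters' processing notes, with no role given. Annotation, strand setting and treatment of reads that align to several genes are not given in the sources used here. Another 4 columns of that table match no sample and were not used. Identifiers were matched to symbols for 55144 of 55385, with coordinates, exons and sequences from GENCODE M21 (GRCm38). Groups come from sample titles.

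Counts were tested with edgeR 4.0.16 in R 4.3.3 (quasi-likelihood F test on group alone, with 2 residual degrees of freedom, TMM factors and genes kept by filterByExpr at a minimum of 10 counts), with Benjamini-Hochberg adjustment over all 14200 genes tested and a threshold of 0.05. Of these genes 34.2% were called in either direction. The SE is the absolute log2 fold change over the square root of F. The fit was tested on simulated data. A group at 0 counts was compared through a floor of 3 counts, and ratios of sums carry exact binomial intervals at the 95% level. These and the Wilson intervals cover counting error only.

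The members and gene lists were chosen with earlier results of these data known. Named were all members, the defining markers, the 3 passing genes of each list with the largest changes and its most abundant gene, the 3 segments of each locus with the most counts, and the 5 genes most like the members. Not all are printed, and some items are not reported here. Fcgrt, Tnfsf13b, Il6, Hbb-bs, Xist, the Y-linked genes, Ighv8-12, Ighv1-53, Ighe, Fcamr, Cd8a, Pou2af1, Bcl11b, the lambda constant genes, Ighg2a, Rag1, Rag2, Igll1 and Vpreb2 fall outside this rule and were named after their values were seen. The same holds for Tbx21, Cd4, Cd22, Bach2, Slamf7, Timd4, C1qa, Cd68 and Retnlg. Alternatives were DESeq2 1.42.0, voom from limma 3.58.1, other scalings and filters, a block for the replicate number, and fits that each drop a library.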

Additional observations from a re-analysis of the deposited data

How the results depend on the processing

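The level of the 7 immunoglobulin constant genes in the KO-labelled relative to the WT-labelled libraries, -1.40 on the log2 scale, stayed within the spread of the replicates in all 8 alternatives and ran from -1.50 to -1.29 with each library left out. That of the summed variable segments, -1.61, ran from -1.68 to -1.54 with each library left out. The number of genes changed was 4851, and 2703 when every gene with 1 count was tested, and it ran from 2306 to 5154 with each library left out. The number of lymphoid and leukocyte markers that fell was 6, and 2 when every gene with 1 count was tested, and it ran from 3 to 8 with each library left out. The number of variable segments that fell was 9 and ran from 5 to 13. Among members, the value of Ighg2b turned from -0.22 to 0.57 without EP300 WT replicate 1 and to -0.71 without EP300 WT replicate 2. Another scaling moved log2 fold changes by -0.07 with library size alone and by 0.01 with DESeq2 size factors. The replicate numbers share only a label: deviations of the libraries numbered 1 had a correlation of -0.00261 over 14200 genes. With the replicate block, 5190 genes, 6 markers and 9 segments were called, and the summed ratios were -1.40 and -1.61. Most lymphocyte markers had 10 counts or fewer in every library and were not tested.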

Other observations

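Genes of early B cell development were looked at apart from the report's comparisons. Of 8 genes of this list, Rag1 and Rag2, which cut and join variable segments, and Igll1 and Vpreb2, of the surrogate light chain, had 0 counts in all 4 libraries. Dntt, the enzyme that adds bases at the joints of variable segments, had 7 and 6 counts in the KO-labelled pair, against 45 and 38 in the WT-labelled pair (log2 fold change -2.51, SE 0.40, edgeR adjusted p = 0.000140). It met the filter of about 10 counts in 2 libraries through the WT-labelled libraries alone, so that direction was fixed by the filter. Dntt was thus counted in libraries in which Rag1 and Rag2 were not.

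Lambda segments and lambda constant genes gave unequal shares over the WT-labelled libraries summed. Over the WT-labelled libraries lambda made up 8.87% of kappa and lambda variable counts (50 of 564, 95% Wilson interval 6.79% to 11.5%), against 2.64% of constant counts (1.63% to 4.24%). In WT replicate 1 alone the intervals overlapped (7.87%, 5.15% to 11.8%, against 3.64%, 2.09% to 6.25%), as they did over the KO-labelled libraries summed (5.78%, 3.17% to 10.3%, against 2.30%, 0.988% to 5.28%). Of their stretches of 50 bases, Iglc3 shares 22.3% and Iglc2 7.65% with another gene, and Iglc1 and Igkc share 0. Whether reads that align to several lambda genes were dropped was not tested.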
